A study of Mus musculus with 2 samples.

Results

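The cells described here are the high-UMI, Rhox5-positive cells found among barcodes labelled as tumour-infiltrating immune cells. They numbered 351 of 9059 kept barcodes, 167 of 4058 in the WT library and 184 of 5001 in the Ifnar1-SA library. A barcode belonged to the set when the summed UMIs (molecular tags that count captured transcripts once each) of Rhox5, Tm4sf1 and Sdc2 reached 10. It also had to carry at most 1 UMI of Ptprc (CD45), fewer than 3 of Cd3d, Cd3e, Cd3g and Trac together, and fewer than 20 of C1qa, C1qb, C1qc, Lyz2 and Csf1r together. The cells were thus chosen by their own counts of these genes, which are given below as a description only. Wild-type mice (WT) and mice of the Ifnar1-SA genotype had received MC38 cells, a mouse colon carcinoma line, were otherwise untreated, and were sampled on day 14 with the 10x droplet method, 1 library per genotype. The gene Ifnar1 codes for 1 of the receptor chains that bind type I interferon. The labels do not say what SA stands for, how many animals entered each library, their age or sex, or whether the inoculated line carries any alteration of Ifnar1, and they name the cells both as immune cells and as CD8 T cells. The question was what these presumed inoculated cells express, whether they cycle, and how far they show an interferon response in each host.

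Type I interferons bind the Ifnar1 and Ifnar2 chains on most nucleated cells, and the kinases Jak1 and Tyk2 then activate transcription factors, Stat2 and Irf9 among them, which bind interferon-stimulated response elements in promoters. Interferon gamma uses the Ifngr1 and Ifngr2 chains and induces Irf1 among its early targets. In tumours both raise MHC class I presentation and chemokines such as Cxcl9 and Cxcl10, which attract T cells. Rhox5 is an X-linked homeobox gene of the reproductive tract that is also transcribed in many mouse tumour lines.

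The cells formed 4.12% of kept WT barcodes (exact Clopper-Pearson 95% interval 3.53 to 4.77%) and 3.68% of kept Ifnar1-SA barcodes (3.17 to 4.24%), and the intervals overlapped. They held 19.5% and 17.5% of all kept UMIs. Their median depth was 50657 UMIs and 6182 genes in WT, and 49052.5 UMIs and 6171 genes in Ifnar1-SA, against medians of 8016.5 and 7176 UMIs over all kept barcodes. The summed marker count ran from 11 to 346 in WT (median 65) and from 10 to 216 in Ifnar1-SA (median 68). Just outside the minimum, 13 WT and 10 Ifnar1-SA barcodes carried 5 to 9 marker UMIs, with median depths of 4904 and 11289.5 UMIs. Just inside it, 7 and 10 cells carried 10 to 19 marker UMIs, with median depths of 23525 and 14928 UMIs. The marker minimum was reached by 196 and 209 barcodes, of which the immune limits removed 29 and 25. No cell barcode was shared between the 2 sets. All intervals cover counting error only, and with 1 library per genotype no difference has a replicate check, no test was made, and "higher" and "lower" describe these libraries.

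Rhox5 stood at 536 CPM (UMIs summed over the cells and scaled to a common total per library) in WT and 620 in Ifnar1-SA, and was seen in 99.4% and 98.4% of the cells. Tm4sf1, a membrane protein of the tetraspanin type, stood at 421 and 451 CPM. Sdc2, a heparan sulfate proteoglycan of the cell surface, stood at 399 and 446 CPM. In mm10, Rhox5 (ENSMUSG00000095180) lies on chromosome X, 37804842 to 37808876 on the plus strand, Tm4sf1 on chromosome 3, 57285611 to 57301988 on the minus strand, and Sdc2 on chromosome 15, 32920723 to 33034935 on the plus strand, all protein-coding.

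The cells expressed most listed mesenchymal genes and few listed epithelial genes, in both hosts. Of 16 mesenchymal genes compared with the other kept barcodes, 9 were over 2-fold higher and 4 over 2-fold lower in both libraries. Over all genes compared, the shares were 18.3% and 15.8%. Spp1 was among the lower ones, with log2 ratios of -2.06 (WT) and -6.71 (Ifnar1-SA). The intermediate filament gene Vim reached 2819 CPM in WT and 3029 in Ifnar1-SA, the calcium-binding protein gene S100a6 14113 and 16356, and fibronectin (Fn1) 1561 and 1305. Epcam and Krt18 had no UMI in any of the cells, which allows a share of cells with a UMI of up to 1.80% in WT and 1.63% in Ifnar1-SA. Krt8 and Cdh1 had 0 UMIs in WT and 1 each in Ifnar1-SA, and 10 of the 18 listed epithelial genes were at 0 in both libraries. The only listed epithelial gene above 1 CPM was Tjp1, a tight junction scaffold, at 19.8 CPM in both. The listed epithelial genes therefore do not mark the cells as colon carcinoma, and the cells are called Rhox5-positive cells. Genes outside the rule that set them apart from other kept barcodes, Xist and Hmga2 among them, are given below. The origin of the cells was not tested.

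Genes usually listed for fibroblasts were abundant. Col3a1, a fibrillar collagen, reached 1847 CPM in WT and 1674 in Ifnar1-SA and was seen in 98.2% and 96.7% of the cells, against 118 and 52.9 CPM in barcodes with T cell transcripts. Dcn, the matrix proteoglycan decorin, reached 697 and 519 CPM and was seen in 88.0% and 77.7% of the cells, and Pdgfra 70.4 and 73.9 CPM. In contrast, Col1a2, the partner chain of type I collagen, stood at 2.26 and 3.10 CPM, and Fap at 1.29 and 0.749 CPM. At least 5 UMIs over Col3a1 and Dcn were carried by 161 of 167 WT cells and 177 of 184 Ifnar1-SA cells. The genotype labels do not say whether these matrix transcripts belong to the MC38 line or to host stroma, and their origin was not tested. Xist in the same cells is given next.

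Xist, the transcript of the inactive X chromosome in female cells, marked the cells off from the host leukocytes. It was found in 6 of 167 WT cells (3.59%, exact 95% interval 1.33 to 7.66%) and 8 of 184 Ifnar1-SA cells (4.35%, 1.90 to 8.39%). The T gate held the kept barcodes with at least 3 T cell UMIs and fewer than 20 myeloid UMIs, 1792 (WT) and 1734 (Ifnar1-SA). The myeloid gate held those with at least 20 myeloid and fewer than 3 T cell UMIs, 1492 (WT) and 1942 (Ifnar1-SA). Xist was found in 96.5% and 77.3% of the T gate and in 95.8% and 68.5% of the myeloid gate, at far lower depths per barcode. At least 5 UMIs over Col3a1 and Dcn were carried by 161 of the 167 WT cells. Most WT cells with these matrix transcripts thus had no Xist UMI. Transcripts of Y-linked genes summed to 0 UMIs in the WT cells and 2 in the Ifnar1-SA cells, and to 4 and 1356 UMIs in the other kept barcodes. Y-linked transcripts were thus nearly confined to the Ifnar1-SA library, where Xist was also found in fewer leukocytes. Host sex and genotype therefore cannot be told apart in any ratio of Ifnar1-SA over WT.

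**Figure D1:**
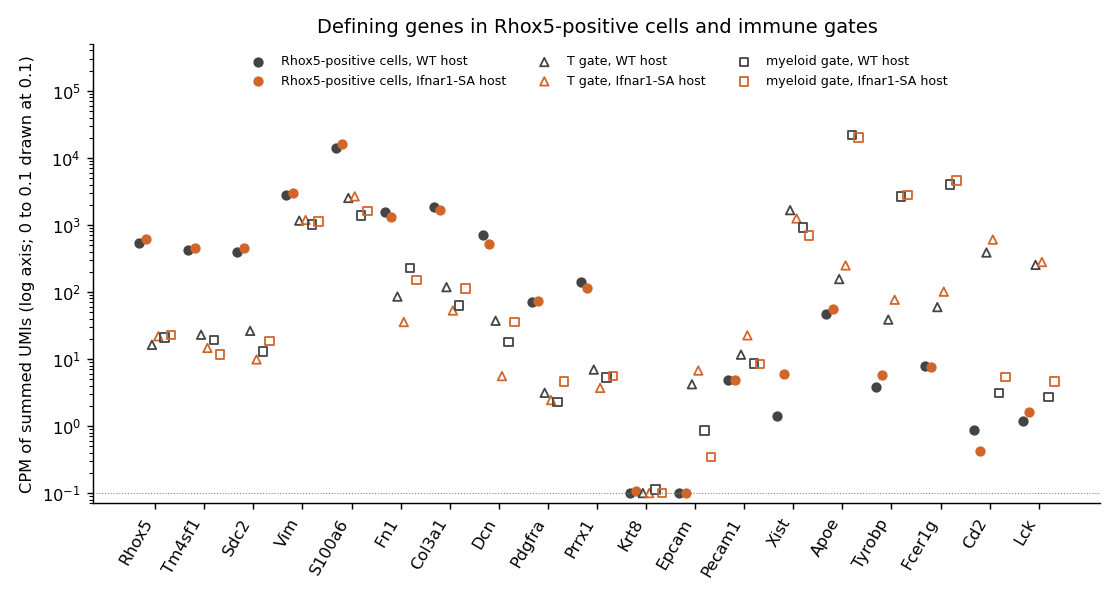
Summed expression (CPM, log axis) of rule genes, mesenchymal, epithelial, endothelial, sex-linked and leukocyte genes in Rhox5-positive cells (filled circles), the T gate (triangles) and the myeloid gate (squares), grey for WT and orange for Ifnar1-SA. Rhox5, Col3a1, Dcn and Prrx1 lie highest in the Rhox5-positive cells, while Xist, Tyrobp and Fcer1g lie far below the gates that express them.

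Leukocyte transcripts that the rule did not use stood at small fractions of their level in free RNA. The rule limited other genes of the same leukocytes, so low values were favoured in advance and are a description only. C1qa, which the rule limited, stood at 0.320% (WT) and 0.399% (Ifnar1-SA) of its free RNA level. Fcer1g, an Fc receptor chain of myeloid cells, stood at 7.87 CPM in WT and 7.70 in Ifnar1-SA, against 1479 and 1917 CPM in barcodes of at most 100 UMIs, which sample free RNA, or 0.532% and 0.402% of that level. Tyrobp, its partner adaptor, stood at 0.290% and 0.379% of the free RNA level, and the T cell gene Cd2 at 0.314% and 0.135%. The 5 listed T cell genes outside the rule summed to 2.48 and 2.89 CPM, and the 7 macrophage genes outside it to 68.0 and 78.0 CPM, of which Apoe gave 46.2 and 55.6. Vessel markers were found in few cells: 2 WT and 3 Ifnar1-SA cells carried at least 5 UMIs over Pecam1, Cdh5 and Rgs5.

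Of 5416 genes compared with the other kept barcodes of the same library, 18.3% were over 2-fold higher and 15.8% over 2-fold lower in the Rhox5-positive cells of both libraries. The 20 genes with the largest ratios, the rule's genes left out, were 20.03- to 35.4-fold higher, and they were ranked among 1234 genes with at least 100 CPM. They included the chromatin protein Hmga2, typical of embryonic and transformed mesenchymal cells, at 168 CPM in WT and 166 in Ifnar1-SA against 5.36 and 5.57 in the other barcodes. Cell surface and adhesion genes among them were Cd34, a sialomucin of progenitors and endothelium (587 and 645 CPM), the collagen receptor Ddr2 (147 and 134) and Cav1, the coat protein of caveolae (238 and 268). Map1b, a microtubule-associated protein, Cald1 and Tpm2, which bind actin filaments, and Serpinf1, a secreted serpin, were also among them.

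The Hippo pathway effectors were represented by Tead1 (135 and 133 CPM) and Wwtr1, also called TAZ (183 and 219 CPM), together with their known target Ccn1 (240 and 226). The mesenchymal homeobox factor Prrx1 stood at 141 and 114 CPM, the early B-lineage and mesenchymal factor Ebf1 at 184 and 173, and the growth arrest protein Gas1 at 133 and 132. Cxcl1, a neutrophil-attracting chemokine, stood at 142 and 149 CPM but was seen in only 45.5% and 52.7% of the cells. Klra4, a gene of the Ly49 receptor family known from NK cells, was in the list at 164 and 159 CPM and was seen in 83.8% and 87.0% of the cells, while the 7 NK cell genes summed to 2.48 and 2.14 CPM. Reads of Klra4 may be shared with other Ly49 genes, so the member is uncertain. Htra1, Shisal2b, Gpx8 and Ppic completed the list. A ranking by these cells against the rest describes the set and is no test of it.

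In their cell cycle, the Rhox5-positive cells of both hosts split into a large group with few mitotic transcripts and a smaller group with many, and mitotic transcripts made up less of the pool in Ifnar1-SA. The 36-gene G2/M list took 0.316% of the WT pool and 0.211% of the Ifnar1-SA pool. Per cell, its median share of UMIs was 0.0703% (WT) and 0.0438% (Ifnar1-SA), with upper quartiles of 0.454% and 0.269% and maxima of 1.51% and 1.12%. The ranges of the cells overlapped almost fully.

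Of the 27 G2/M genes measured (20 CPM or more on average of the libraries), 27 had lower values in Ifnar1-SA, with a median log2 ratio of -0.54, where all 5397 genes measured had a median of 0.03, with 40.7% of ratios below 0 and 59.3% above 0. A gene was called when its 95% interval lay wholly beyond 1.5-fold: 0.686% of all genes were called lower and 0.0926% higher, and 5 of the 27 were called lower. Top2a, the topoisomerase that untangles chromosomes for mitosis (chromosome 11, 98992943 to 99024189, minus strand), stood at 264 CPM in WT and 143 in Ifnar1-SA, with a log2 ratio of -0.89 and an interval of -0.98 to -0.79. Cenpf, a kinetochore protein, stood at 106 and 53.4 CPM (-0.99, -1.14 to -0.83), the ubiquitin carrier Ube2c at 197 and 112 (-0.81, -0.92 to -0.70), the spindle motor Kif11 at 37.4 and 20.5 (-0.87, -1.13 to -0.61) and the spindle protein Nusap1 at 50.5 and 26.2 (-0.95, -1.17 to -0.72). The kinase Cdk1 (166 and 105 CPM), cyclin B1 (Ccnb1, 60.5 and 40.1) and the proliferation antigen Mki67 (43.1 and 29.8) had ratios of -0.66, -0.59 and -0.53 whose intervals reached inside 1.5-fold. Kif11 stood at -0.20 after thinning to 10000 UMIs per cell.

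DNA replication genes differed less. Of 25 S phase genes measured, 5 had higher and 20 lower values in Ifnar1-SA, the median log2 ratio was -0.17, and none was called. Pcna, the sliding clamp of replication, stood at 167 and 155 CPM, the helicase subunits Mcm6 and Mcm7 at 73.1 against 73.4 and 45.7 against 51.9, and the ribonucleotide reductase subunit Rrm2 at 105 and 78.9. The G1 regulators lay close together, with Cdk4 at 311 and 321 CPM and cyclin D1 (Ccnd1) at 228 in both.

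After thinning each cell to 10000 UMIs, which left out 4 shallower Ifnar1-SA cells, Mki67 was found in 22.8% of WT cells (exact 95% interval 16.6 to 29.9%) and 14.4% of Ifnar1-SA cells (9.66 to 20.4%), against 43.1% and 33.7% unthinned. Top2a was found in 38.9% (31.5 to 46.8%) and 29.4% (22.9 to 36.7%), and Pcna in 65.3% (57.5 to 72.5%) and 61.1% (53.6 to 68.3%). All 3 pairs of intervals overlapped. At 2000 UMIs, Top2a was found in 22.8% and 13.6% of the Rhox5-positive cells, 22.7% and 15.5% of the T gate and 7.92% and 7.71% of the myeloid gate.

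**Figure D2:**
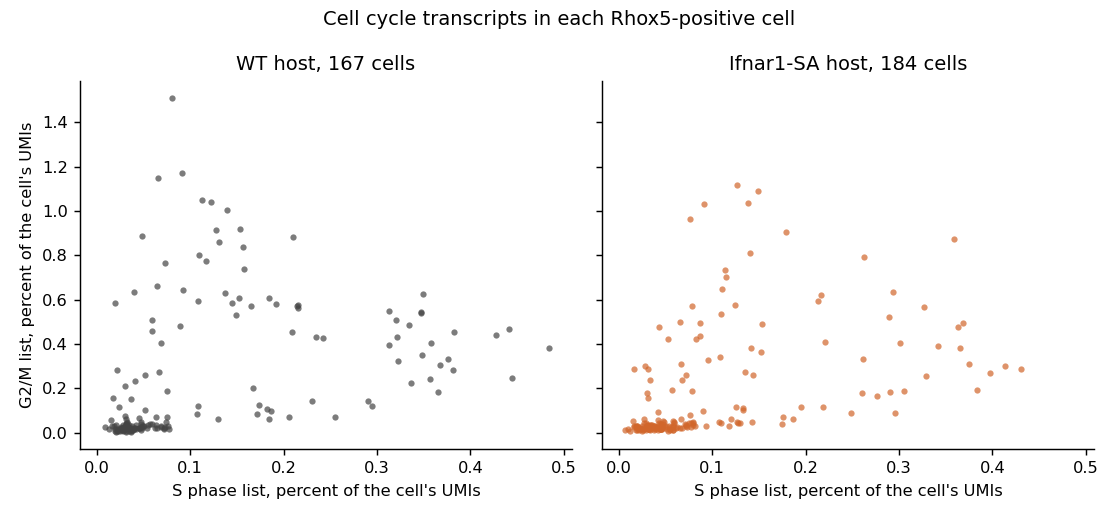
Percent of each Rhox5-positive cell's UMIs in the S phase list (horizontal) and the G2/M list (vertical), with 167 WT cells at left and 184 Ifnar1-SA cells at right; each point is 1 cell. Most cells of both libraries sit near the origin, and the cells with high G2/M values reach 1.51% in WT and 1.12% in Ifnar1-SA.

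The lower mitotic values were not found in these cells alone. In the T gate the G2/M list had a median log2 ratio of -0.47 and in the myeloid gate 0.07, and no test of the difference was possible. Replication-dependent histone genes had a median of -1.05 over the 6 measured in the Rhox5-positive cells, all lower and 4 called, but the most negative were also low in both gates: Hist1h2ap had ratios of -1.77, -1.62 and -1.37 in Rhox5-positive cells, T gate and myeloid gate, and Hist1h2ae -1.73, -1.55 and -0.95. Over all genes measured, 0.734% were called lower and 1.24% higher in the T gate, and 0.516% lower and 0.392% higher in the myeloid gate. Histone genes are near-identical and their transcripts mostly lack a poly(A) tail, so single members are uncertain. Across cells the S and G2/M percentages went together, with Spearman's rho of 0.60 over 167 WT cells and 0.61 over 180 Ifnar1-SA cells after thinning, as a description of cells that share a library.

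The Rhox5-positive cells of both hosts expressed interferon-inducible genes. Most type I genes had lower values in Ifnar1-SA, where the leukocytes of the same droplet runs had higher values. No unstimulated reference for these cells was used here, so their level was not shown to be a response. Against the other kept barcodes, the type I list had median log2 ratios of -0.61 (WT) and -1.15 (Ifnar1-SA), where all genes had 0.27 in both. Of 57 type I genes so compared, 20 were over 2-fold lower and 1 higher in both libraries, against 15.8% and 18.3% of all genes. Of 44 type I genes measured, 37 had lower and 7 higher values in Ifnar1-SA. The median log2 ratio was -0.19, and the 62 listed genes summed to 7768 CPM in WT and 6746 in Ifnar1-SA. The same 44 genes had higher values in Ifnar1-SA for 42 in the T gate and 42 in the myeloid gate, with medians of 0.60 and 0.33. Over all genes measured, 54.5% of ratios were above 0 and 45.5% below 0 in the T gate, and 69.1% above and 30.9% below 0 in the myeloid gate. For 39 of them the interval in the Rhox5-positive cells lay wholly below that of the T gate, and for 37 below that of the myeloid gate, against 6.69% and 10.8% of all 5397 genes measured. Markers of another cell type moved with the T gate: its 8 measured macrophage genes were all higher in Ifnar1-SA (median 0.67, 4 called; the 12 listed summed to 446 and 734 CPM), as were its 5 measured MHC class II genes (median 0.56, none called). In the myeloid gate the 7 MHC class II genes were all lower (median -0.61, 4 called). Their part in the gates' interferon values was not tested.

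Of 14 receptor and signalling genes measured, 5 had higher and 9 lower values in Ifnar1-SA, and none was called. Ifnar1 (ENSMUSG00000022967, chromosome 16, 91485238 to 91507441, plus strand) stood at 27.9 CPM in WT and 32.0 in Ifnar1-SA, with a log2 ratio of 0.20 and an interval of -0.05 to 0.44. Ifnar2 stood at 57.5 and 54.9 CPM, Ifngr1 at 70.0 and 71.7, Ifngr2 at 38.4 and 40.1 and Jak1 at 66.4 and 72.7. Every one of these 5 intervals included 0. The transcription factors Stat2 (63.0 and 62.8 CPM) and Irf9 (32.3 and 32.9) also lay close together. The lowest ratios of the list were those of feedback inhibitors: Usp18 at -0.60, Socs1 at -0.41 (-0.71 to -0.11) and Socs3 at -0.27 (-0.51 to -0.03). UMI counts of Ifnar1 say nothing of the receptor protein or of its sequence.

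The 4 type I genes called lower, of 44 measured, were Ifit1, Ifit3, Rsad2 and Cmpk2. Ifit1, an RNA-binding antiviral protein, stood at 181 CPM in WT and 108 in Ifnar1-SA (-0.75, -0.86 to -0.63), and its relative Ifit3 at 109 and 61.9 (-0.82, -0.97 to -0.67). Rsad2, the antiviral enzyme viperin, stood at 106 and 57.5 (-0.88, -1.03 to -0.73), and Cmpk2, the mitochondrial nucleotide kinase that neighbours it, at 34.9 and 17.8 (-0.98, -1.25 to -0.70). The same genes had ratios of 1.17, 0.69, 1.17 and 0.95 in the T gate and 0.56, 0.51, 0.21 and 0.38 in the myeloid gate.

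The size of these ratios rested on which cells were kept. With stricter immune exclusion (no UMI of Ptprc or the T cell genes and fewer than 5 of the myeloid genes), which left 110 WT and 127 Ifnar1-SA cells, Ifit1 stood at -0.31, Ifit3 at -0.48 and Rsad2 at -0.40, and among cells with under 0.1% of UMIs in the G2/M list Rsad2 stood at -0.10. Rsad2 was seen in 59.9% of WT and 52.2% of Ifnar1-SA cells, but its UMIs were unevenly spread. Its 5 highest cells held 49.2% of them in WT and 37.5% in Ifnar1-SA. Without those cells its ratio was -0.61 (-0.81 to -0.40). Ifit1 without its 5 highest cells was -0.62 (-0.75 to -0.49) and Cmpk2 -1.11 (-1.44 to -0.78). The factor Irf7, which amplifies the response, stood at 72.1 and 47.1 CPM (-0.62, -0.79 to -0.44), against 1.45 in the T gate and 0.55 in the myeloid gate. Usp18, which dampens the receptor, stood at 37.5 and 24.7 (-0.60, -0.85 to -0.36).

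The most abundant type I genes lay nearer to each other. The membrane protein gene Ifitm3 stood at 1713 CPM in WT and 1671 in Ifnar1-SA (-0.04), the tetherin gene Bst2 at 989 and 819 (-0.27) and the ubiquitin-like modifier Isg15 at 562 and 448 (-0.33, -0.39 to -0.27). Per cell, Isg15 had a median of 3.67 per 10000 UMIs in WT (quartiles 1.62 and 8.25) and 3.03 in Ifnar1-SA (1.63 and 6.59). Genes with ratios above 0 were led by the RNA sensor Ifih1 (36.2 and 41.5 CPM, 0.20) and Oasl2 (139 and 147 CPM, 0.08). A few genes went below 0 in a gate as well. The ratio of Ifi27 was below 0 in the Rhox5-positive cells (-0.35), in the T gate (-0.68) and in the myeloid gate (-0.50), that of Phf11d also in the T gate (-0.30) and that of Oas1a also in the myeloid gate (-0.27).

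**Figure D3:**
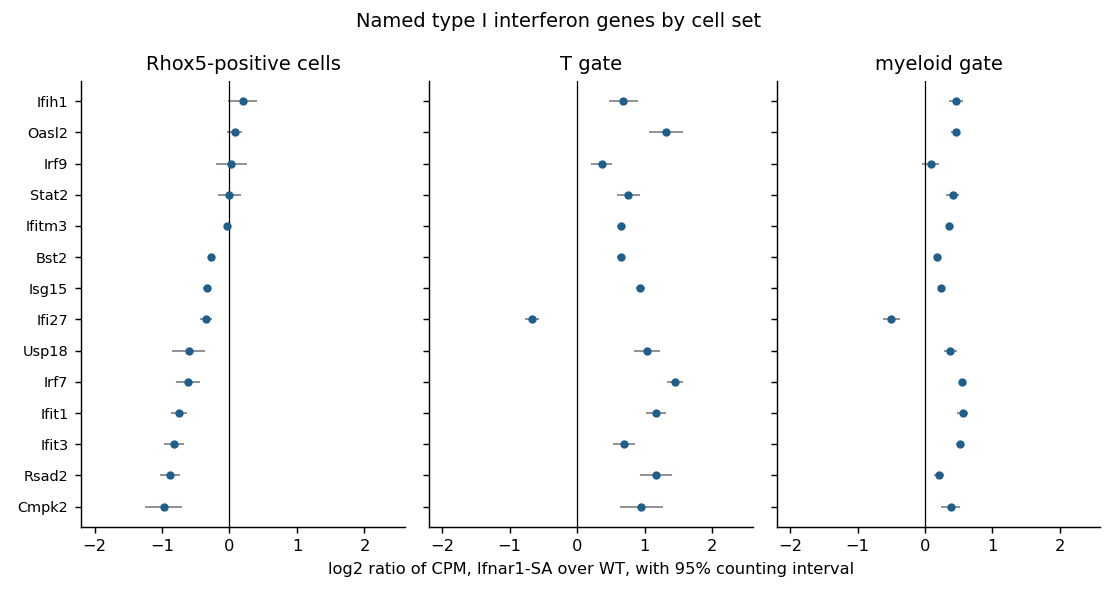
Log2 ratio of CPM, Ifnar1-SA over WT, in the Rhox5-positive cells (left), the T gate (centre) and the myeloid gate (right). The type I interferon genes named in the text are shown, except Phf11d and Oas1a. Points are ratios and bars 95% counting intervals. The points lie mostly left of 0 in the Rhox5-positive cells, down to -0.98 for Cmpk2. Among the genes shown, they lie right of 0 in each gate except for Ifi27. Of the genes not shown, Phf11d was also below 0 in the T gate and Oas1a in the myeloid gate.

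The promoters of 3 genes called lower and of Isg15, which was not called, are shown because interferon-stimulated response elements are the sites through which Stat2 and Irf9 act. Promoters of Isg15, Irf7, Stat2 and Irf9 were added after their values were seen. The motif searched was GAAA, any 2 bases and GAAA, on both strands, in the 250 bases before the start, from RefSeq on GRCm38.p6. It was held by 2.98% of 32851 promoters, and by 11 of 43 promoters (25.6%) of the 33 measured type I genes found in that table. Capitals mark the matches, which overlap in Isg15, and TTTC, any 2 bases and TTTC is the motif read on the other strand. Ifit1 lies at chr19:34640639-34640888, plus strand, and its matches begin 104 and 85 bases before the start.
Ifit1: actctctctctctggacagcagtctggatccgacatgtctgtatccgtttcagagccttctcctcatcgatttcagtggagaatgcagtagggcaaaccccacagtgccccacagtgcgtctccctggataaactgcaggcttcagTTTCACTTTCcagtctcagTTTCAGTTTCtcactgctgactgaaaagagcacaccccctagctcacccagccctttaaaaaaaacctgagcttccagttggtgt
Rsad2 lies at chr12:26456453-26456702, minus strand, and its match begins 120 bases before the start.
Rsad2: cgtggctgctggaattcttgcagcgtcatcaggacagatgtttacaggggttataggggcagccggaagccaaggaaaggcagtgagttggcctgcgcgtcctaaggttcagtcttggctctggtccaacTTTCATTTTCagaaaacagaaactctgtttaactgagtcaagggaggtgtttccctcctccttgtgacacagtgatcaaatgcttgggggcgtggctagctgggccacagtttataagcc
Isg15 lies at chr4:156200819-156201068, minus strand, and its matches begin 78, 72 and 66 bases before the start.
Isg15: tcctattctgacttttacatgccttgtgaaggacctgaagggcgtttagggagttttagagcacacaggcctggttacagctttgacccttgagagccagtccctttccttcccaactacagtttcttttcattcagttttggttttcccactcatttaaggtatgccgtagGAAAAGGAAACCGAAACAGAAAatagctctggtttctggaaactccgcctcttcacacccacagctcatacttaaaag
Cxcl10, described below, lies at chr5:92348890-92349139, minus strand, and its match begins 213 bases before the start.
Cxcl10: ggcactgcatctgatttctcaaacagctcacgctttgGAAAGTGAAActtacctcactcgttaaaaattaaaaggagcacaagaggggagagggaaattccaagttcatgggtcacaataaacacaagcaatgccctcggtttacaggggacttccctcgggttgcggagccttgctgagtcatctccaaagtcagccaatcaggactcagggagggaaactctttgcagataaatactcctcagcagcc
Of the other genes called lower, Ifit3 held 2 matches and Cmpk2 and Cxcl9 none in this window. Of the added genes, Stat2 held 1 match, and Irf7 and both starts of Irf9 held none. A match describes the letters and is neither a binding site nor a cause.

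Genes that lean to interferon gamma also had lower values in Ifnar1-SA over the whole set, but not among cells with few G2/M UMIs. Of 17 measured, 15 had lower and 2 higher values in Ifnar1-SA, with a median log2 ratio of -0.22, against 0.22 in the T gate and 0.22 in the myeloid gate over the same genes. The chemokine Cxcl9 (chromosome 5, 92321347 to 92328079, minus strand) stood at 669 CPM in WT and 294 in Ifnar1-SA (-1.18, -1.25 to -1.12), and Cxcl10 at 1209 and 725 (-0.74, -0.78 to -0.69). These were the 2 genes called lower. With stricter immune exclusion Cxcl9 stood at -0.70, Cxcl10 at -0.19 and the median of the list at -0.017. The guanylate-binding proteins Gbp2 (566 and 455 CPM, -0.32) and Gbp4 (136 and 104, -0.39) and the immunity-related GTPase Iigp1 (350 and 304, -0.21) lay between, and the transcription factor Irf1 stood at 100 and 101. Among cells with under 0.1% of UMIs in the G2/M list, 90 in WT and 118 in Ifnar1-SA, the median of the gamma list was 0.16 and that of the type I list -0.091. Gbp2 and Gbp4 then stood at 0.22 and 0.36.

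Cxcl9 and Cxcl10 were spread unevenly over the cells. Cxcl9 was seen in 61.7% of WT and 58.7% of Ifnar1-SA cells, with medians of 0.339 and 0.350 per 10000 UMIs and upper quartiles of 4.81 and 2.95, so that the hosts differed in the upper cells and not in the median. Its 5 highest cells held 39.6% and 30.5% of its UMIs, and without them the ratio was -1.01 (-1.09 to -0.93). Cxcl9 reached 129% and 64.4% of its own level in barcodes of at most 100 UMIs, and Cxcl10 428% and 200%. Fcer1g, for which the rule's leukocyte limits favoured low values, reached 0.532% and 0.402%. The myeloid gate held Cxcl9 at 1230 and 990 CPM.

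MHC class I genes lay close together between hosts. Of 22 genes measured, 8 had higher and 14 lower values in Ifnar1-SA, with a median of -0.024 and none called. B2m stood at 4058 CPM in WT and 3979 in Ifnar1-SA, below its 5494 and 6199 CPM in the other kept barcodes, with the heavy chain H2-K1 at 2030 and 1927 and H2-D1 at 1973 and 1849. The immunoproteasome subunits stood at 822 and 871 CPM (Psmb8), 287 and 263 (Psmb9) and 404 and 467 (Psmb10), and the peptide transporter Tap1 at 106 in both. Cd274, the checkpoint ligand PD-L1, stood at 35.7 and 32.6 CPM (-0.13, -0.36 to 0.10), and the 7 MHC class II genes summed to 55.0 and 56.7 CPM.

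Cell by cell, the type I list had a median share of UMIs of 0.740% among WT cells (range 0.222 to 2.92%) and 0.656% among Ifnar1-SA cells (range 0.179 to 3.47%), so the cells of the hosts overlapped over nearly the whole range. The upper quartiles were 1.13% and 0.902%. After thinning, the type I percentage went with the gamma list (Spearman's rho 0.64 over 167 WT cells and 0.69 over 180 Ifnar1-SA cells) and the MHC class I list (0.56 and 0.62). It went against the S phase list (-0.21 and -0.37) and the G2/M list (-0.11 and -0.31). These correlations describe cells that share 1 library each, and the lists share depth.

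**Figure D4:**
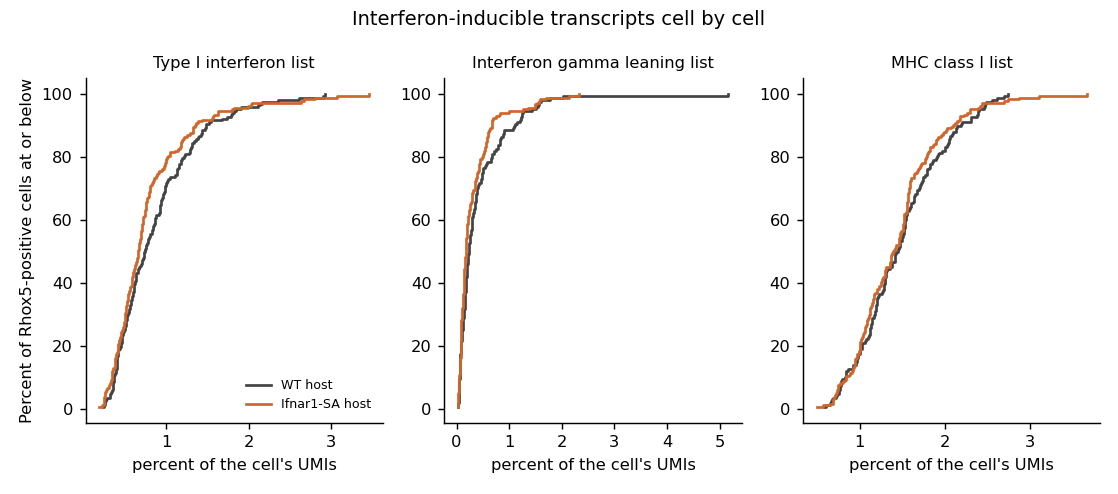
Cumulative share of Rhox5-positive cells (vertical, percent) at or below each percent of the cell's UMIs (horizontal) for 3 lists, grey for 167 WT cells and orange for 184 Ifnar1-SA cells. The type I curves part in the middle, with medians of 0.740% and 0.656%, and the MHC class I curves run close together, with medians of 1.45% and 1.40%.

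Among all genes, 5 were called higher and 37 lower in Ifnar1-SA. The 4 higher genes that met the naming rule were Fabp4, Ctla2a, Fabp5 and Ly6c1. The fatty acid-binding protein gene Fabp4, typical of fat cells and capillaries, stood at 2.05 CPM in WT and 55.8 in Ifnar1-SA, but its 5 highest cells held 99.0% of its UMIs in Ifnar1-SA. Ctla2a stood at 12.5 and 122 CPM with 99.2% of its Ifnar1-SA UMIs in 5 cells. Without the cells that carried Xist, fewer than 3 Rhox5 UMIs or at least 5 vessel UMIs, 160 WT and 175 Ifnar1-SA cells were left, and 2 genes were called higher. Fabp5, a skin-type fatty acid-binding protein, was spread more widely, at 139 and 296 CPM (1.08, 0.99 to 1.18) and in 73.7% and 78.8% of the cells. The Ly6 surface protein gene Ly6c1 stood at 99.4 and 177 CPM (0.83, 0.71 to 0.95). It had ratios of 1.84 (1.41 to 2.29) in the myeloid gate and -0.59 (-0.98 to -0.21) in the T gate.

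Of the 26 lower genes eligible for naming, the 12 lowest held matrix, chemokine, histone and mitotic genes. Col1a1, a chain of type I collagen, stood at 110 CPM in WT and 20.6 in Ifnar1-SA (-2.41, -2.64 to -2.19) and was seen in 37.1% and 16.3% of the cells. With a marker minimum of 5 UMIs its ratio was 0.57, from 13 and 10 more barcodes. Mfap4, a microfibril-associated protein, stood at 83.0 and 18.9 CPM (-2.13) and the small proteoglycan Bgn at 100 and 37.3 (-1.43), with 46.5% and 51.4% of their WT UMIs in 5 cells. Bgn stood at -0.30 with the marker minimum of 5. The lipocalin Apod stood at 50.3 and 22.03 CPM (-1.19) and was seen in 54.5% and 29.9% of the cells.

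Spp1, the secreted glycoprotein osteopontin, stood at 52.9 and 2.25 CPM (-4.56), but 5 WT cells held 96.1% of its UMIs and its ratio without the 5 highest cells of each library was -0.95 (-2.22 to 0.22). The chemokine Ccl5 stood at 227 and 102 CPM (-1.16, -1.27 to -1.05), with 43.5% and 61.1% of its UMIs in 5 cells and -1.71 (-1.88 to -1.54) without them. With equal weight per cell the ratio of Ccl5 was -0.58, inside 1.5-fold, after thinning -0.67, and with stricter immune exclusion -0.79. It stood at 21.3% and 9.39% of its level in barcodes of at most 100 UMIs. Gstp1, a glutathione transferase, stood at 84.3 and 43.7 CPM (-0.95, -1.12 to -0.77) and was evenly spread, with 10.9% and 10.8% of its UMIs in 5 cells. It had ratios of -1.06 in the T gate and -0.99 in the myeloid gate. Hist1h2ae, Hist1h1b, Cenpf and Nusap1 completed the list.

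Monocyte-attracting chemokines went the other way from Cxcl9, without reaching the call. Ccl2 stood at 872 CPM in WT and 1055 in Ifnar1-SA (0.27, 0.23 to 0.32) and Ccl7 at 73.7 and 93.5 (0.34, 0.20 to 0.49). The colony-stimulating factor Csf1 stood at 73.1 and 61.9 CPM (-0.24) and Mif, macrophage migration inhibitory factor, at 2098 and 1953 (-0.10). Cd47, the signal against phagocytosis, stood at 292 and 284 CPM, and Ulbp1, a ligand of the NK receptor NKG2D, at 70.5 and 57.3.

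Metabolic and stress genes had slightly lower values in Ifnar1-SA. All 18 hypoxia and glycolysis genes measured had lower values in Ifnar1-SA, with a median log2 ratio of -0.14 and none called, led by the glucose transporter Slc2a1 (28.2 and 19.8 CPM, -0.51) and the hexokinase Hk2 (29.9 and 21.3, -0.49). Of 16 stress and dissociation genes, 13 had lower values, with a median of -0.18 and none called; the immediate early genes Fosb (201 and 126 CPM) and Ier2 (191 and 120) were both at -0.67. The myeloid gate gave similar values, with 18 of 19 hypoxia and glycolysis genes lower (median -0.16) and 12 of 18 stress genes lower (median -0.14), and the T gate 12 of 20 (median -0.015) and 4 of 17 (median 0.14). Their part in the interferon and cell cycle results was not tested. Of the genes known to give rise to MC38 neoantigens, 6 were measured, 4 with higher and 2 with lower values in Ifnar1-SA and none called. Aatf stood at 51.4 and 41.4 CPM (-0.31, -0.51 to -0.12), and the intervals of Adpgk (-0.08), Reps1 (0.06), Med12 (0.11), Cpne1 (0.12) and Dpagt1 (0.25) included 0.

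The genes that varied most among the Rhox5-positive cells included chemokines, matrix genes and abundant genes such as Lgals1, B2m and Actb. No correction for the mean level was made. Ranked by the smaller of the Fano factors (variance over mean of counts thinned to 10000 UMIs) of both libraries among 2377 genes with a median of 1.26 and 1.24, the nuclear RNA Malat1 led with 155 and 130. Cxcl10 followed with 53.1 and 51.5, the imprinted RNA H19 with 28.6 and 37.8, S100a6 with 27.5 and 29.2 and Ccl2 with 26.8 and 29.7. Ccl5 had 26.0 and 92.9 and Cxcl9 54.7 and 15.7. The 5 highest cells held 43.5% (WT) and 61.1% (Ifnar1-SA) of the Ccl5 UMIs. The matrix genes Col3a1 (25.9 and 18.0) and Dcn (15.7 and 19.9) also varied, and went together across cells with Spearman's rho of 0.48 and 0.39.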

How the data were processed

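Unfiltered UMI count matrices were deposited for 2 libraries, made with Cell Ranger 4 per the file headers and on mm10 per the submitters' processing notes. For aligner settings, annotation release and any sort, the sources used here give nothing. The values are raw counts as the authors deposited them. The WT library held 55497066 UMIs and the Ifnar1-SA library 62732220. Barcodes with at least 1000 UMIs, 500 genes and at most 10% mitochondrial UMIs were kept, without a doublet caller. Counts were summed over the cells per library and expressed as CPM. Log2 ratios carry a 95% exact conditional binomial interval, and shares a Clopper-Pearson interval, for counting error only. With 1 library per group no test was made. Genes were named as follows: the 20 with the largest ratio to other kept barcodes at 100 CPM or more, and the 12 highest and 12 lowest between hosts with 50 CPM in either library, 30 UMIs over both and an interval beyond 1.5-fold (without predicted, sex-linked, mitochondrial, ribosomal and antigen receptor genes), besides list members. The members, gene lists and alternatives were chosen with earlier results of these data known. The interval was tried on simulated sums drawn with Poisson counting error only. The spread between cells was left out, so the simulation says nothing of it. Promoters came from RefSeq (GRCm38.p6) and gene positions from GENCODE on the same build as mm10. Scripts used Python 3.11.15, numpy 2.4.6, scipy 1.17.1 and pandas 2.3.3. A member of the interferon lists is counted in them but not reported by name here.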

Additional observations from a re-analysis of the deposited data

Results flagged for a closer look

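The type I interferon list had a median log2 ratio, Ifnar1-SA over WT, of -0.19 in the Rhox5-positive cells, opposite in sign to 0.60 in the T gate and 0.33 in the myeloid gate. The interferon gamma leaning list had -0.22 in the Rhox5-positive cells, opposite in sign to 0.22 in the T gate and 0.19 in the myeloid gate, each over the genes measured in that set. The difference between cell sets was not tested, since each genotype is 1 library. In the gates the type I medians lay between 0.55 and 0.61 (T gate) and between 0.26 and 0.35 (myeloid gate) under 5% and 20% mitochondrial maxima, equal weight per cell and median-of-ratios scaling. Among Rhox5-positive cells with under 0.1% of UMIs in the G2/M list, the gamma median was 0.16, of the same sign as in the gates.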

How the results depend on the processing

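The type I median stayed below 0 under all 15 alternatives and the G2/M median under all 12, but their sizes moved. With stricter immune exclusion, which left 110 WT and 127 Ifnar1-SA cells, the shares were 2.71% and 2.54%, and the medians were -0.11 (type I), -0.017 (gamma), -0.071 (MHC class I), -0.095 (S phase) and -0.47 (G2/M). With a 5% mitochondrial maximum they were -0.21 (type I), -0.29 (gamma), -0.081 (MHC class I) and -0.39 (G2/M). Without Xist, low-Rhox5 and vessel cells they were -0.17 (type I), -0.18 (gamma) and -0.49 (G2/M). With equal weight per cell they were -0.16 (type I), -0.060 (MHC class I) and -0.47 (G2/M), and with median-of-ratios scaling -0.23 (type I), -0.26 (gamma), -0.059 (MHC class I) and -0.58 (G2/M). Thinning gave -0.13 (type I), -0.15 (gamma) and 0.012 (MHC class I), a change of sign. In cells with under 0.1% G2/M UMIs the medians were -0.091 (type I), 0.16 (gamma) and 0.011 (MHC class I), the last 2 with changed sign. A marker minimum of 20 gave -0.50 (G2/M) and -0.041 (MHC class I), and a depth-scaled minimum -0.51 and -0.038. Without the 5 deepest cells of each library the medians were -0.24 (S phase) and -0.49 (G2/M). A floor of 50 CPM gave -0.13 (type I) and -0.052 (MHC class I), and no floor beyond 10 UMIs -0.26 (type I). Genes called higher numbered 3 with a marker minimum of 20, 2 with 3 Rhox5 UMIs in place of the sum, 3 with the 5% maximum, 2 without Xist, low-Rhox5 and vessel cells, 93 with no floor and 3 at 2-fold. Genes called lower numbered 16 after thinning, 100 with no floor and 9 at 2-fold. Of the 20 identity genes, 8 were shared under stricter immune exclusion, 12 with equal weight and 13 after thinning. Col1a1 turned to 0.57 with a marker minimum of 5. Without cells holding at least 5 UMIs over Col3a1, Dcn, Pecam1 and Cdh5 the shares were 0.123% and 0.09998%, and other values were not given for the 5 cells left per library. The causes were not tested. The alternatives without Xist, low-Rhox5 and vessel cells, with under 0.1% G2/M UMIs, and without the 5 cells highest in a gene were chosen after seeing the data. So were 2 choices of what is listed here: changes of sign are given for list medians and called genes only, and the pooled shares of UMIs in the S phase and G2/M lists are given as ranges only. Of 89 single genes tried, 23 that were not called changed sign in 58 of 1187 values. Over 11 alternatives the G2/M share ranged from 0.248 to 0.328% (WT) and 0.1745 to 0.238% (Ifnar1-SA), and the S phase share from 0.114 to 0.139% (WT) and 0.101 to 0.126% (Ifnar1-SA). No replicate could be left out, and no paired analysis was possible because each genotype has 1 library. Depth limits genes near the 20 CPM floor.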
